A study of Mus musculus with 4 samples.

Results

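The NF-kB system was followed through 10 genes, of the 24421 in each table, in plasma cells of wild-type mice and in myeloma cells of the VQ model. The genes were listed by name: the 5 subunits Nfkb1, Rela, Rel, Nfkb2 and Relb, the inhibitors Nfkbia and Nfkbie, and the regulators Tnfaip3, Traf3 and Birc3. Of these, 6 were grouped as the canonical arm (Nfkb1, Rela, Rel, Nfkbia, Nfkbie, Tnfaip3) and 4 as the alternative arm (Nfkb2, Relb, Traf3, Birc3). All 10 had at least 1 UMI (a counted transcript molecule) in the cells analysed. In the GENCODE vM21 annotation of GRCm38, the subunit genes lie at chr3:135584655-135691547 (Nfkb1), chr19:5637483-5648130 (Rela), chr11:23736847-23770970 (Rel), chr19:46304320-46312385 (Nfkb2) and chr7:19606217-19629438 (Relb). The inhibitor genes lie at chr12:55489410-55492647 (Nfkbia) and chr17:45555703-45563169 (Nfkbie), and the regulator genes at chr10:19000910-19015657 (Tnfaip3), chr12:111166370-111267153 (Traf3) and chr9:7848699-7873186 (Birc3).

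Single cells sorted as CD138+ B220- were profiled by droplet RNA sequencing of transcript 3′ ends in 4 libraries. The first came from bone marrow of age-matched wild-type mice on the C57/BL6 background (WT BM, 1 library). The others hold donor-derived cells taken from recipients on the same background, from bone marrow (VQ BM, 2 libraries) or lymph node (VQ LN, 1 library), and labelled multiple myeloma. They carry V{kappa}*MYC and 1 mutant Nras allele, LSL Q61R, besides a wild-type one, together with IgG1-Cre, and the line is named VQ-D2. V{kappa}*MYC is a MYC transgene under kappa light chain control, and the LSL cassette keeps the mutant Nras allele silent until Cre, here driven from the IgG1 locus, removes it. The labels do not say how many donors or recipients were used, nor whether the VQ BM libraries came from separate animals. No agent was named for any group.

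NF-kB proteins are dimeric transcription factors that are held inactive in resting cells. In the canonical arm, the IKK kinase complex marks inhibitor proteins such as IκBα (Nfkbia) for destruction, which frees dimers of p50 (from Nfkb1) with RelA or c-Rel. In the alternative arm, receptors such as BAFF-R, CD40 and the lymphotoxin β receptor release the kinase NIK from a complex of TRAF3 with cIAP proteins (Birc2, Birc3), and p100 (from Nfkb2) is cut to p52, the partner of RelB. Several members are themselves transcribed in response to NF-kB, Nfkbia and Tnfaip3 as feedback inhibitors, and human myelomas often carry mutations in genes of the alternative arm.

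The sequence that NF-kB dimers bind, the kappaB consensus, was looked for on both strands in the 250 bases before the transcription starts that RefSeq lists for GRCm38.p6. Of the 10 members, 8 had an entry, with 11 starts between them, and none was listed for Nfkb1 and Relb. A match was found at 8 of the 11 starts and in 6 of the 8 members (Nfkbia, Nfkbie, Tnfaip3, Rel, Nfkb2, Traf3). Of all 32851 promoter entries of the same length, 1281 (3.90%) held a match. The 3 stretches below are shown because their genes had the lowest adjusted p of the inhibitors, the alternative subunits and the regulators in the comparison that follows. Each runs 5′ to 3′ on the gene's strand, with matches in capitals.
Nfkbia (chr12:55492648-55492897, minus strand): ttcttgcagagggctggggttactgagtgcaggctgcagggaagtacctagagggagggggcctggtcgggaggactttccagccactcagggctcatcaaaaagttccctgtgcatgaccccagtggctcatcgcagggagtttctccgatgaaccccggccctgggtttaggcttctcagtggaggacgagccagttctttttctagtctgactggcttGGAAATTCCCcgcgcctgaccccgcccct
Nfkb2, first start (chr19:46304487-46304736, plus strand): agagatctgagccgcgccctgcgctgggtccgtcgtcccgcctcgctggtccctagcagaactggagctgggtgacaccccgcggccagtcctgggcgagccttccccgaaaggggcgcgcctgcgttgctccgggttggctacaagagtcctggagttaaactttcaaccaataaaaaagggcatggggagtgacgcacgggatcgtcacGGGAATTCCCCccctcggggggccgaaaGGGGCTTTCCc
Tnfaip3, first start (chr10:19015411-19015660, minus strand): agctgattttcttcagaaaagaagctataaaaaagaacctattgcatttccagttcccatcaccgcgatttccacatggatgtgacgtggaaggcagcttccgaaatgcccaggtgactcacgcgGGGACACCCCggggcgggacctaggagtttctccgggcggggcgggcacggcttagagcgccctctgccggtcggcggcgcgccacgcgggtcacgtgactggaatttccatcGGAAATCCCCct
In Nfkbia, the inhibitor gene, the match GGAAATTCCC lay 29 to 20 bases before the start. The first Nfkb2 start had GGGAATTCCC at 39 to 30 bases, overlapped by GGAATTCCCC from 38 to 29, and GGGGCTTTCC at 11 to 2. In Tnfaip3, the gene of the deubiquitinase A20, GGGACACCCC lay at 125 to 116 bases and GGAAATCCCC at 12 to 3. The windows of Birc3 and Rela held no match, which says only that these letters are not in those windows. A match is a description of the sequence, and binding was not measured.

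**Figure D1:**
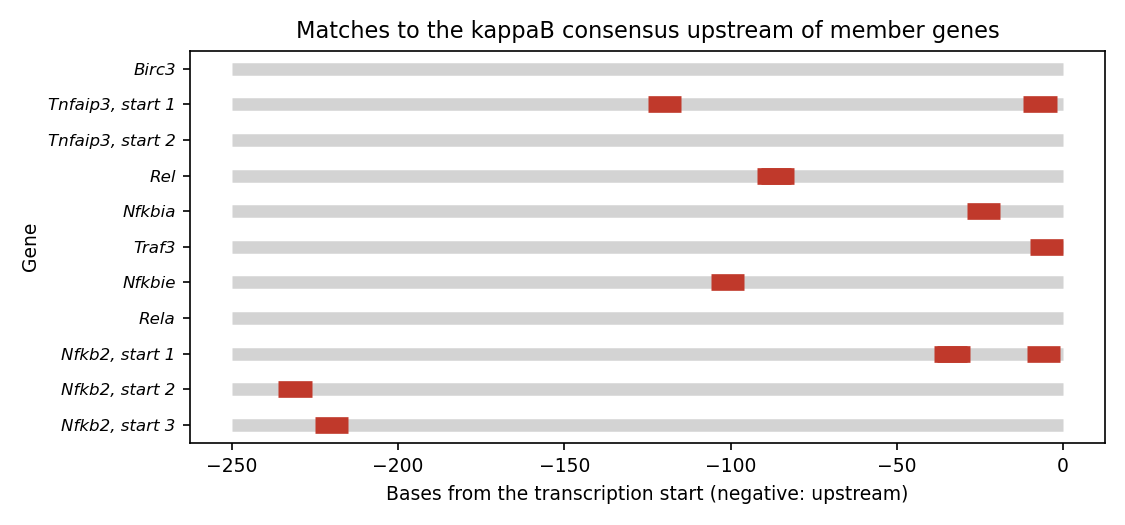
Positions of matches to the kappaB consensus (marks) upstream of the member genes' transcription starts, in bases from the start (x axis, negative is upstream), 1 row per start. Matches in Nfkbia and at the first start of Nfkb2 and Tnfaip3 lie within 39 bases of the start, with a further Tnfaip3 match 125 to 116 bases before it.

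Members were counted in wild-type cells in which Jchain, the joining chain of secreted antibody, made up at least 5% of UMIs, and in VQ cells in which it made up under 5%. This kept 106 of 163 WT BM cells, 226 of 245 and 170 of 188 cells of VQ BM libraries 1 and 2, and all 185 VQ LN cells. Of 15 plasma cell markers, 14 or 15 had a UMI in each library, but their levels differed, as given below. Kept UMIs were 204002, 1045005, 444437 and 803752, so 3 UMIs were worth 14.7, 2.87, 6.75 and 3.73 CPM (counts relative to the library total, scaled to 1e6), and the wild-type library was the shallowest. No cell barcode was shared between libraries. The libraries also stood apart in other ways. Immediate early and heat shock genes (Fos, Fosb, Egr1, Hspa1a, Hspa1b), which respond to stimulation and stress, summed to 3309 CPM in WT BM and to 566, 707 and 348 in VQ BM 1, VQ BM 2 and VQ LN. At least 2 of 20 cell cycle genes were seen in 1 wild-type cell and in 165, 102 and 131 VQ cells. The 9 mature B cell markers summed to 1299 CPM against 462, 369 and 533, with Pax5, Cd22 and Fcer2a at 0 in WT BM. B cell precursor markers summed to 314 CPM against 56.5, 81.0 and 85.8, with Dntt and Rag1 at 0 in all kept VQ cells. Single genes made up nearly all of these VQ sums. Cd79b had 472 of 483, 161 of 164 and 426 of 428 mature B cell marker UMIs, against 166 of 265 in WT BM. Cd93 had 58 of 59, 35 of 36 and 68 of 69 precursor marker UMIs, against 32 of 64 in WT BM. Neutrophil markers summed to 63.7 CPM in WT BM, 1025 and 2930 in VQ BM, and 14.9 in VQ LN, where S100a8 and S100a9 were at 0. No doublet caller was run. Cells with UMIs of at least 2 markers of another cell type numbered 9, 19, 11 and 1 among the kept cells, and without them 5 members were still called lower and none higher in VQ BM than in WT BM.

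In VQ bone marrow, 5 of the 9 members that could be tested were lower than in wild-type plasma cells and none was higher. Both genes of the alternative dimer fell, Nfkb2 9.89-fold and Relb 12.1-fold. The inhibitor gene Nfkbia fell 7.82-fold, the deubiquitinase gene Tnfaip3 25.8-fold and Birc3, which encodes the ubiquitin ligase cIAP2, 3.80-fold. The genes of the canonical dimer, Nfkb1 and Rela, were not called in either direction. Counted by arm, 2 of 5 canonical members (Nfkbia, Tnfaip3) and 3 of 4 alternative members (Nfkb2, Relb, Birc3) were lower. Of all 8286 genes tested, 29.9% were called, 12.8% lower and 17.1% higher.

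Genes were called at an adjusted p under 0.05 by edgeR's quasi-likelihood test on the summed counts of kept cells, with Benjamini-Hochberg adjustment over all genes tested. Levels below are CPM after TMM scaling, which corrects library totals for differences in composition. They are listed as WT BM, VQ BM 1, VQ BM 2, VQ LN where not named, with the mean and SD over the 2 VQ BM libraries, while log2 values carry an SE computed back from the test. The single WT BM and VQ LN libraries are assumed to vary like the VQ BM pair, and a p reflects nothing beyond the spread of those 2 libraries, which may be technical. In the main fit that spread was fully pooled over genes, so the SD of a single gene does not enter its p or SE. Wild-type over VQ folds carry 95% intervals that cover counting error only. Tnfaip3, Relb and Nfkbie reached the count filter in the wild-type library alone, and Nfkb2 in WT BM and VQ LN. A member that passed through the group where it is high had to differ, so the count of called members is not support for a direction of the set. With library totals as the only scaling, the calls over all genes went from 1420 higher and 1058 lower to 2141 higher and 709 lower, and the median log2 fold change of all genes from 0.20 to 0.56. The 5 members were called lower under both. In cells with at most 1 cycle gene, 1 of 4 testable members (Nfkbia) was called, and in cells with no immediate early or heat shock UMI, 1 of 6 (Nfkbia).

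**Figure D2:**
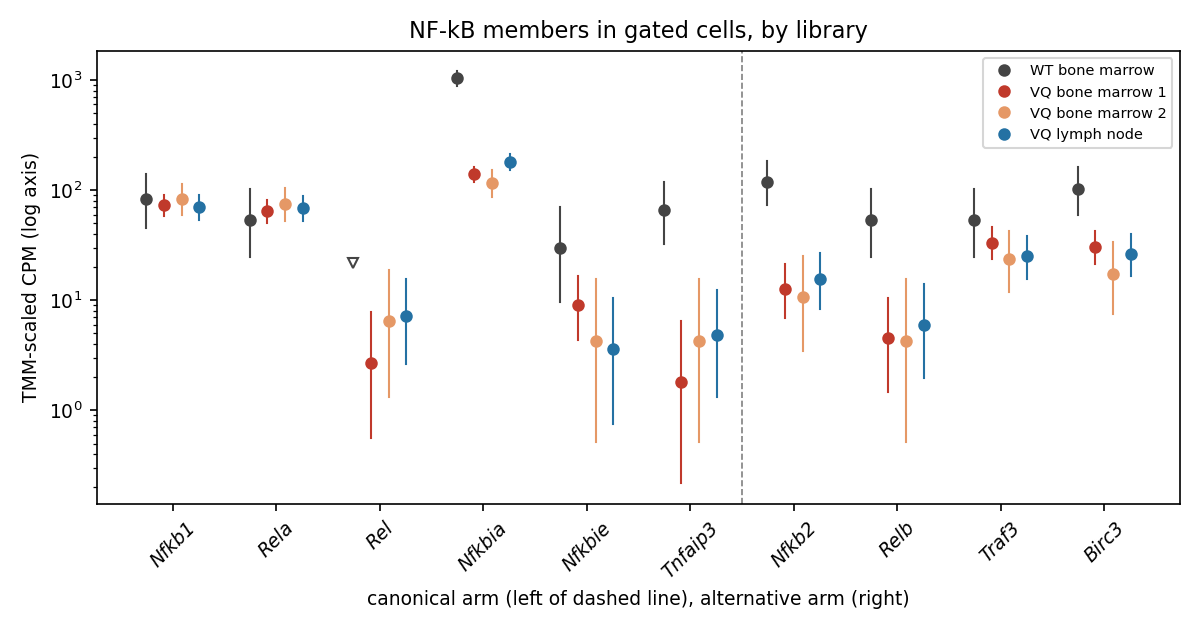
TMM-scaled CPM (log axis) of each member in the kept cells of the 4 libraries, canonical arm left and alternative arm right of the dashed line. Points are libraries and bars are 95% Poisson counting intervals. The wild-type point lies far above the VQ points for Nfkbia, Tnfaip3, Nfkb2 and Relb and among them for Nfkb1.

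Among the canonical subunits, Nfkb1, which encodes p105 and its product p50, was counted with 14 UMIs in WT BM, 81 and 39 in VQ BM and 58 in VQ LN. These came to 83.6, 73.0, 83.9 and 69.9 TMM-scaled CPM. The wild-type value lay between those of the VQ BM libraries, whose mean was 78.5 ± 7.72 (SD, n = 2). The log2 fold change of VQ BM over WT BM was -0.12, with a 95% interval of -0.94 to 0.70 (edgeR adjusted p = 0.862). It was -1.07 (adjusted p = 0.0118) when all sorted cells were used with no Jchain threshold, and 0.24 with library totals as the scaling. The 57 wild-type cells outside the threshold had 294 CPM of Nfkb1 against 68.6 CPM in the kept cells, both before TMM scaling.

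Rela, the main transactivating subunit of the canonical arm, had 9, 72, 35 and 57 UMIs. Its levels were 53.7, 64.9, 75.3 and 68.7 TMM-scaled CPM, lowest in WT BM, with a VQ BM mean of 70.1 ± 7.37 (SD, n = 2). The log2 fold change of 0.35 (95% interval -0.61 to 1.31) did not pass (edgeR adjusted p = 0.635). Rel, which encodes c-Rel, had 0, 3, 3 and 6 UMIs, 12 in all, and was left out by the count filter. Zero UMIs in 106 wild-type cells allow a share of cells with a UMI of up to 2.83%. Its VQ levels of 2.70, 6.46 and 7.23 CPM lie under the wild-type floor of 17.9 TMM-scaled CPM (3 UMIs), so no fold is given.

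Both alternative subunits were called lower. Nfkb2, which encodes p100 and its product p52, had 20 UMIs in WT BM, against 14, 5 and 13 in the deeper VQ libraries. Its level was 119 TMM-scaled CPM in WT BM, 12.6 and 10.8 in VQ BM, and 15.7 in VQ LN. The VQ values lay close together and far below the wild-type value. The VQ BM mean was 11.7 ± 1.31 (SD, n = 2), a 9.89-fold difference (counting interval 5.01 to 19.6). The log2 fold change was -3.29 ± 0.54 (SE, edgeR adjusted p = 2.70e-08). This call ended in cells with at most 1 cycle gene (log2 fold change -2.67, adjusted p = 0.0814) and in cells with no immediate early or heat shock UMI (-3.73, adjusted p = 0.0582). In all sorted cells the log2 fold change was -2.64.

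Relb, the partner of p52, had 9 UMIs in WT BM and 5, 2 and 5 in VQ libraries. These gave 53.7 TMM-scaled CPM in the single WT BM library against 4.51, 4.30 and 6.03. The VQ BM mean of 4.41 ± 0.14 (SD, n = 2) was 12.1-fold lower (counting interval 4.0 to 38.2). Its log2 value was -3.54 ± 1.02 (SE, edgeR adjusted p = 0.0032). In all sorted cells the log2 fold change was -2.73. With DESeq2, Relb received no adjusted p.

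The make-up of the subunit transcripts within each library does not depend on the scaling. Capture differs between genes, so these shares are compared across libraries only. Nfkb2 made up 58.8% of Nfkb1 plus Nfkb2 UMIs in WT BM (20 of 34; exact Clopper-Pearson 95% interval 40.7 to 75.4%). It made up 14.7% in VQ BM 1 (14 of 95; 8.30 to 23.5%), 11.4% in VQ BM 2 (5 of 44; 3.79 to 24.6%) and 18.3% in VQ LN (13 of 71; 10.1 to 29.3%). In these kept cells the wild-type interval did not overlap those of the VQ libraries. Relb made up 50% of Rela plus Relb UMIs in WT BM (9 of 18; 26.0 to 74.0%), and 6.49% (5 of 77), 5.41% (2 of 37) and 8.06% (5 of 62) in VQ BM 1, VQ BM 2 and VQ LN. The highest upper bound among those VQ shares was 18.2%. Nfkb2 and Relb together took 55.8% of the UMIs of all 5 subunits in WT BM (29 of 52), and 10.9% (19 of 175), 8.33% (7 of 84) and 12.9% (18 of 139) in the VQ libraries. Over all sorted cells the wild-type Nfkb2 share was 32.5% (26 of 80; 22.4 to 43.9%). That interval overlapped those of VQ BM 1 (9.53 to 24.9%) and VQ LN (10.1 to 29.3%). The cells outside the Jchain threshold held 40 UMIs of Nfkb1 and the kept cells 14. The intervals cover counting error in single libraries, and no test was made on these shares.

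**Figure D3:**
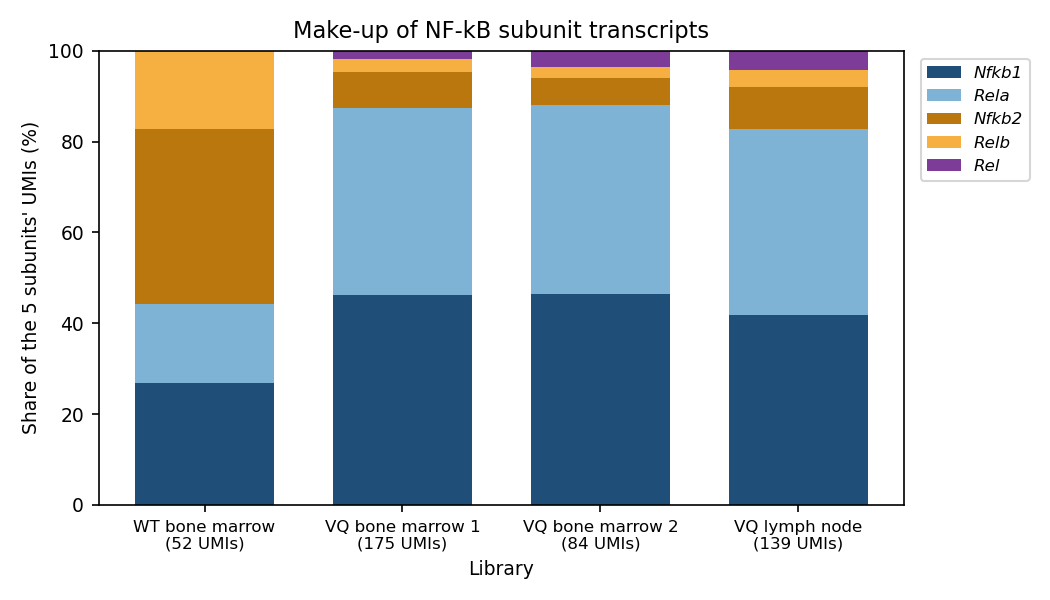
Share of the UMIs of the 5 NF-kB subunits (y axis, percent) taken by each subunit in the kept cells of each library, with the UMI total under each bar. Nfkb2 and Relb together fill 55.8% of the wild-type bar and 8.33 to 12.9% of the VQ bars.

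Nfkbia, the gene of IκBα, was the most abundant member in every library. It had 173, 154, 54 and 149 UMIs, or 1033, 139, 116 and 180 TMM-scaled CPM. All VQ libraries lay far below WT BM. The VQ BM mean was 128 ± 16.0 (SD, n = 2), which was 7.82-fold lower (counting interval 6.35 to 9.61), and the log2 fold change was -2.99 ± 0.20 (SE, edgeR adjusted p = 7.02e-47). Wild-type cells also had more immediate early and heat shock transcripts. In cells with no UMI of those genes, Nfkbia was at 657 CPM in WT BM (15 UMIs in 16 cells) and at 140, 93.8 and 205 CPM in VQ BM 1, VQ BM 2 and VQ LN, before TMM scaling. The log2 fold change in those cells was -2.16, still called, and it was -2.29 over all sorted cells.

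Nfkbie, the gene of the related inhibitor IκBε, had 5, 10, 2 and 3 UMIs, giving 29.8, 9.01, 4.30 and 3.62 TMM-scaled CPM. All VQ values were under the wild-type value, but the log2 fold change of -1.97 (95% interval -4.21 to 0.27) did not pass (edgeR adjusted p = 0.188). Without VQ BM library 1 it was -2.72. Tnfaip3, whose product A20 ends NF-kB signalling by editing ubiquitin chains, had 11 UMIs in WT BM and 2, 2 and 4 in the VQ libraries. Its levels were 65.7 TMM-scaled CPM against 1.80, 4.30 and 4.82. The VQ BM mean of 3.05 ± 1.77 (SD, n = 2) was 25.8-fold lower, with a wide counting interval of 7.66 to 111. The log2 fold change was -4.57 ± 1.06 (SE, edgeR adjusted p = 0.000168). It was -3.85 without VQ BM library 1 and -3.49 over all sorted cells, and DESeq2 gave no adjusted p.

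Of the regulators that hold NIK in check, Birc3 was called and Traf3 was not, and the difference between them was not tested. Birc3 had 17, 34, 8 and 22 UMIs and levels of 101, 30.7, 17.2 and 26.5 TMM-scaled CPM. WT BM was highest and the VQ BM pair differed among themselves, with a mean of 23.9 ± 9.50 (SD, n = 2). The 3.80-fold difference (counting interval 2.03 to 6.83) gave a log2 value of -1.94 ± 0.49 (SE, edgeR adjusted p = 0.000504). It was -2.54 without VQ BM library 1 and -1.35 over all sorted cells. The call ended in cells with at most 1 cycle gene (-1.51, adjusted p = 0.183), in cells with no immediate early or heat shock UMI (-2.03, adjusted p = 0.269) and with DESeq2 (-2.13, adjusted p = 0.190). Traf3, the adaptor that brings NIK to the cIAP ligases, had 9, 37, 11 and 21 UMIs. Its levels of 53.7, 33.4, 23.7 and 25.3 TMM-scaled CPM were highest in WT BM. The log2 fold change of -0.83 (95% interval -1.96 to 0.30) did not pass (edgeR adjusted p = 0.284), and it was -0.08 without cells that had markers of another type.

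**Figure D4:**
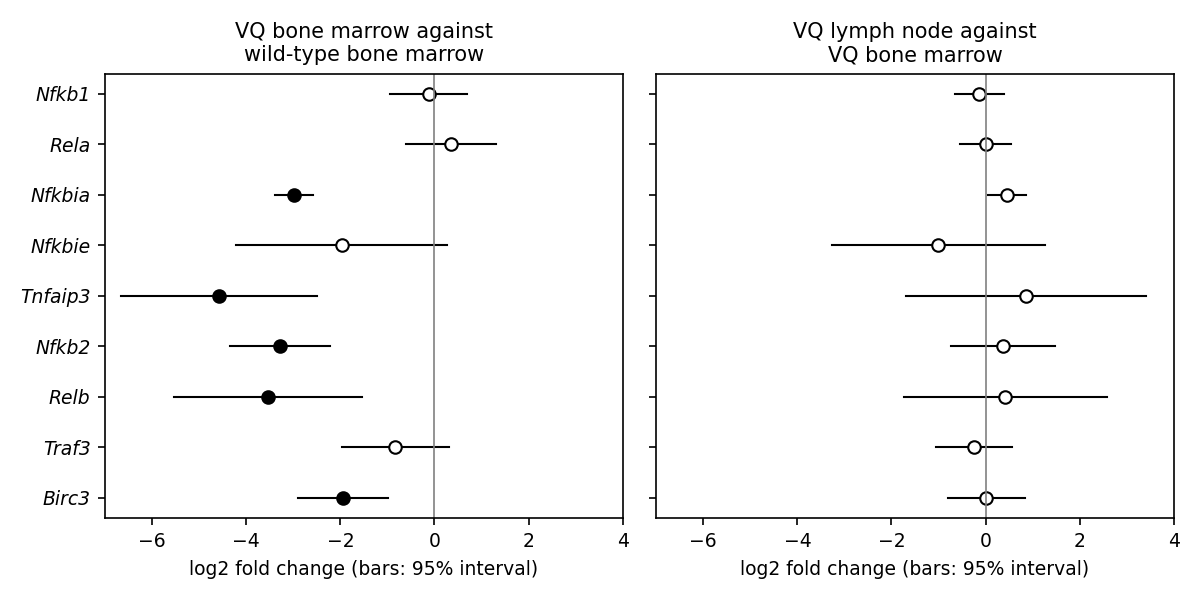
Log2 fold changes of the 9 tested members (x axis) with bars of the 95% interval, for VQ BM compared with WT BM and for VQ LN compared with VQ BM. Filled points are called genes. Nfkbia, Tnfaip3, Nfkb2, Relb and Birc3 lie below 0 in the first comparison with bars clear of 0, and in the second only the bar of Nfkbia, at 0.46, is clear of 0.

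Between the VQ lymph node and VQ bone marrow, no member was called by edgeR, against 3.13% of all genes (1.86% higher and 1.27% lower). Without adjustment, 1 member (Nfkbia) passed 0.05 in the edgeR test. DESeq2 called 0 of the 4 members to which it gave an adjusted p. Nfkbia stood at 180 TMM-scaled CPM in VQ LN and 139 and 116 in VQ BM, a log2 difference of 0.46 ± 0.20 (SE, edgeR adjusted p = 0.268). In cells with at most 1 cycle gene it was -0.27. The intervals were narrow for Nfkb1 (-0.14, from -0.66 to 0.38) and Rela (0.00, from -0.53 to 0.54), and wider for Traf3 (-0.25, from -1.06 to 0.56) and Birc3 (0.02, from -0.81 to 0.84). They left room for more than 2-fold differences in Nfkb2 (0.37, from -0.73 to 1.48), Relb (0.42, from -1.74 to 2.59), Tnfaip3 (0.86, from -1.70 to 3.41) and Nfkbie (-1.01, from -3.27 to 1.25).

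The VQ lymph node and wild-type bone marrow have 1 library each, so that comparison has no replicate check and no test, and it shares its libraries with the comparisons above. Of the 9 members, 7 lay more than 2-fold lower in VQ LN and none more than 2-fold higher, where 19.0% of all 8286 genes lay lower by that measure and 29.6% higher, 48.6% in all. Wild-type levels exceeded those of VQ LN 5.75-fold for Nfkbia (counting interval 4.59 to 7.21), 7.62-fold for Nfkb2 (3.61 to 16.7) and 8.92-fold for Relb (2.68 to 33.9). The ratio was 13.6 for Tnfaip3 (4.04 to 58.7), 8.26 for Nfkbie (1.61 to 53.2), 3.83 for Birc3 (1.91 to 7.55) and 2.12 for Traf3 (0.856 to 4.84). Nfkb1 and Rela had ratios of 1.20 (0.616 to 2.17) and 0.782 (0.340 to 1.59), with 1 inside both intervals. Of the 37 other pathway genes tested, 8 lay more than 2-fold higher in VQ LN and 10 lower, the lower ones including the adaptor genes Tradd (59.7 against 19.3 TMM-scaled CPM) and Tirap (59.7 against 24.1).

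Shares of cells with a UMI depend on depth, and the median kept cell had 1998.5 UMIs in WT BM, 4700 and 2646 in VQ BM, and 3978 in VQ LN. Despite its shallower cells, WT BM had Nfkbia UMIs in 66.0% of cells (70 of 106), against 35.0% (79 of 226), 22.9% (39 of 170) and 38.9% (72 of 185). With every cell thinned to 500 UMIs, the Nfkbia shares were 29.0% in WT BM and 3.62, 6.62 and 8.11% in VQ BM 1, VQ BM 2 and VQ LN. At 1000 UMIs they were 50.6, 13.7, 8.70 and 13.5%. A single cell held at most 9 Nfkbia UMIs, so no library's count came from a few cells. Thinning to 500 left out 6, 5, 19 and 0 cells.

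The other members were seen in fewer cells. Nfkb2 had a UMI in 17.0% of WT BM cells before thinning, and in 5.75, 2.94 and 7.03% of VQ cells. Nfkb1 was seen in 9.43% of WT BM cells and 24.3, 19.4 and 25.4% of VQ cells. Its levels per library were close (69.9 to 83.9 TMM-scaled CPM) and the wild-type cells were the shallowest, so no difference is read from these shares. Birc3 was seen in 14.2, 12.8, 4.12 and 10.8% of cells and Tnfaip3 in 8.49, 0.885, 1.18 and 2.16%. At 500 UMIs each of these shares was 5.30% or less, from at most 9 cells with a UMI in a library. No cell type known to lack all members was at hand as a measure of free RNA. Any of 11 neutrophil markers, which plasma cells should lack, had a UMI in 6.60, 18.6, 6.47 and 5.41% of kept cells. Single markers ran lower, for example S100a8 in 1.89, 2.65, 2.94 and 0% and Prtn3 in 0, 7.96, 1.76 and 4.86%. The unthinned shares of Tnfaip3, Relb and Rel in VQ cells lay at or below 3.24%. A share for 11 markers together is unlike a share for a single gene, so no level of free RNA is read from it.

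**Figure D5:**
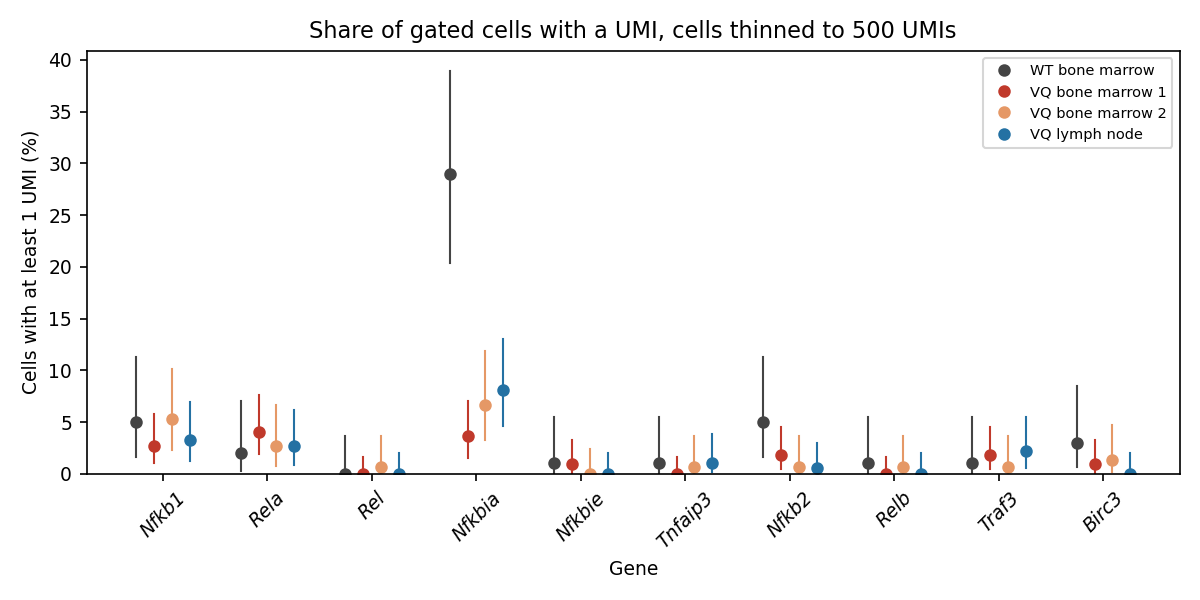
Share of kept cells with at least 1 UMI of each member (y axis, percent) after thinning each cell to 500 UMIs, by library, with exact 95% binomial intervals. Nfkbia stands at 29.0% in wild-type cells and 3.62 to 8.11% in VQ cells, and the other members are at 5.30% or less in every library.

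Within the wild-type library, Nfkbia was at 1062 CPM in the 20 kept cells with a UMI of the MHC class II gene H2-Aa and at 784 CPM in the 86 without. Nfkb2 was at 170 and 76.5 CPM in the same cells (8 and 12 UMIs). Both cell sets lay above every VQ library for both genes. In the VQ libraries, Rela was at 69.4, 98.6 and 79.3 CPM in cells with at least 2 cycle genes and at 65.8, 10.1 and 33.7 CPM in the others, the latter from 10, 1 and 5 UMIs. Nfkbia went the other way in both VQ BM libraries, with 131 and 104 CPM in cells with cycle genes and 244 and 181 CPM without, and was at 188 and 175 CPM in VQ LN. Cells with markers of another type were not removed from these sets, and their part in the Nfkbia values was not tested. The part of cell cycle, H2-Aa and immediate early transcripts in the differences between genotypes was not tested beyond the subsets given beside each gene.

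The genes whose pattern over the 4 libraries was nearest to that of Nfkbia, by Euclidean distance of centred log2(CPM + 1) among 6651 genes with at least 50 UMIs, were Ddx58 (distance 0.177), Prdm1 (0.207) and Dennd5b (0.212). Those nearest to Birc3 were Bptf (0.180), Pink1 (0.184) and Psenen (0.225). With 4 libraries many genes share such a pattern, and the distance is a description only.

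Elsewhere in the pathway, 54 receptors, adaptors, kinases, ubiquitin enzymes and further inhibitor proteins were listed, and 37 were tested. In VQ BM against WT BM, 2 were higher and 6 were lower, where 29.9% of all genes were called (17.1% higher and 12.8% lower), with a median log2 fold change of -0.21 against 0.20 over all genes. Ltbr, the lymphotoxin β receptor that feeds the alternative arm, had no UMI in WT BM and 75.7, 79.6 and 68.7 TMM-scaled CPM in VQ BM 1, VQ BM 2 and VQ LN. It was at least 4.29-fold higher in VQ BM (edgeR adjusted p = 1.02e-05) and at least 3.84-fold higher in VQ LN, against a floor of 3 UMIs in the wild-type library. With the counting error of the VQ libraries included, the lower 95% limits of these ratios were 3.44 and 3.02. Its call ended in cells with at most 1 cycle gene (adjusted p = 0.0645), in cells without immediate early or heat shock UMIs (adjusted p = 0.270) and with DESeq2 (adjusted p = 0.0578). In both cell subsets Ltbr again had 0 UMIs in WT BM and from 5 to 24 in each VQ library, so the direction did not turn. Tnfrsf1a, a TNF receptor, was also higher (11.9 against 59.5 and 34.4 CPM, adjusted p = 0.0345), from 2 wild-type UMIs, and its ratio of 4.36 had a counting interval of 1.17 to 36.6. Its call ended in 9 of 13 alternative analyses. Tnfrsf17, the receptor BCMA of plasma cells, fell from 525 to 49.6 and 77.5 CPM (log2 fold change -3.15 ± 0.25 SE, edgeR adjusted p = 2.26e-33). In cells without immediate early or heat shock UMIs that value was -2.0 (adjusted p = 0.0867).

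Of 16 adaptors and kinases tested, 2 were lower in VQ BM and none higher, where 12.8% of all genes were lower and 17.1% higher. Irak1, a kinase of Toll-like receptor signalling, was at 316 against 132 and 137.7 TMM-scaled CPM. Malt1, the paracaspase of the CARD-BCL10 complex, was at 59.7 against 18.0 and 21.5. Of 13 ubiquitin ligases and deubiquitinases, 3 were lower and none higher, against the same shares of all genes. Cyld, a deubiquitinase that restrains NF-kB, fell from 281 to 52.3 and 58.1 CPM (log2 fold change -2.37, edgeR adjusted p = 1.25e-12). Birc2, the gene of cIAP1, fell from 113 to 33.4 and 21.5 CPM. The ubiquitin ligase gene Itch fell from 161 to 63.1 and 58.1 CPM. Of these 5 genes, Cyld was called in all 13 alternatives with an adjusted p, and the calls of Malt1, Irak1, Birc2 and Itch ended in 5 of 11, 2 of 13, 2 of 12 and 3 of 13. For Itch the log2 fold change was -1.39 in the kept cells and -0.64 over all sorted cells (adjusted p = 0.144). In the 16 wild-type cells without immediate early or heat shock UMIs, Itch had 0 UMIs, so the direction turned there, against 21 and 11 UMIs in VQ BM and 12 in VQ LN. Birc2 was at -1.94 and at -2.91 in cells with at most 1 cycle gene (adjusted p = 0.0675), where its UMIs were 19 in WT BM and 2 in each VQ library. The median log2 fold change was -0.29 for adaptors and kinases and -0.79 for the ubiquitin enzymes.

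Of 27 NF-kB target genes listed, 9 were tested and 5 were lower in VQ BM, none higher, where 12.8% of all genes were lower and 17.1% higher. The median log2 fold change of the 9 was -2.28, but Fas and Bcl2l1 reached the count filter in the wild-type library alone. Junb, an AP-1 subunit, fell from 501 to 77.5 and 81.8 TMM-scaled CPM, and Gadd45b, a stress response gene, from 161 to 24.3 and 30.1. Fas, the death receptor, fell from 59.7 to 3.6 and 4.3 CPM, Ebi3 from 47.8 to 4.5 and 17.2, and Irf1, an interferon response factor, from 71.6 to 15.3 and 12.9. Junb and Gadd45b also respond early to stress, and the wild-type library had the most immediate early and heat shock transcripts. In cells without a UMI of those genes the Junb value was -2.12 (adjusted p = 0.0504), while Gadd45b and Fas were called in every alternative that gave an adjusted p and Ebi3 was lost in 4 of 9. In an 11-gene index of NF-kB activity in human myeloma, 9 of 10 tested genes were lower (12.8% of all genes were). Of the 10, 4 (Tnfaip3, Nfkbie, Relb, Plek) reached the count filter in the wild-type library alone. Of the 10, 6 are members described above, so its count repeats their values, and the other 4, Cd74, Plek, Il2rg and Malt1, were all lower. Cd74, the MHC class II invariant chain, fell from 2859 to 91.0 and 123 CPM.

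In VQ LN against VQ BM, 3 genes of these lists were higher and 1 was lower. Of all genes, 1.86% were higher and 1.27% lower. Higher were 1 of 37 other pathway genes tested and 2 of 9 target genes, and lower was 1 of 10 index genes. Irf1 stood at 63.9 TMM-scaled CPM in VQ LN against 15.3 and 12.9 in VQ BM (log2 fold change 2.12 ± 0.38 SE, edgeR adjusted p = 3.49e-06). Junb stood at 178 against 77.5 and 81.8 CPM (1.17 ± 0.22, adjusted p = 1.18e-05), though the log2 value was -0.40 in cells with at most 1 cycle gene. Bcl3, an inhibitor family protein that works with p50 and p52 in the nucleus, was at 31.3 against 8.1 and 6.5 CPM (2.02 ± 0.56, adjusted p = 0.0147). In cells with at most 1 cycle gene, Irf1 had 9 and 1 UMIs in VQ BM and 6 in VQ LN. Bcl3 had 5 and 2 against 1 there, from totals of 151900, 99496 and 148154 UMIs. In that subset VQ LN thus lay between the VQ BM libraries for Irf1 and below both for Bcl3. Il2rg, the common cytokine receptor chain, was lower, at 31.3 against 66.7 and 79.6 CPM (-1.18 ± 0.31, adjusted p = 0.0085). With DESeq2, Junb and Il2rg were not called (adjusted p = 1.00) and Irf1 and Bcl3 received no adjusted p. Over all alternatives with an adjusted p, the calls of Irf1, Bcl3, Junb and Il2rg ended in 2 of 11, 2 of 9, 5 of 13 and 7 of 13.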

How the data were processed

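Cells were encapsulated on the Bio-Rad ddSEQ instrument and made into libraries with the SureCell 3′ kit, per the labels' protocols. The authors deposited raw UMI counts per gene and cell, with no scaling, for cells that passed a knee filter, per the file headers and names. Reads were placed on mm10, per the submitters' processing notes; the aligner and counter are not given in the sources used here. The members and gene lists were chosen with earlier results of these data known.

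Cells were kept by Jchain (at least 5% of UMIs in wild type, under 5% in VQ cells) and their counts summed per library, so that cells were never replicates. The sums were fitted with edgeR 4.0.16 in R 4.3.3 (TMM, filterByExpr, quasi-likelihood test, all 4 libraries, 3 group means). The filter kept 8286 genes, with a common coefficient of variation of 0.0928 and 1 residual degree of freedom. The prior degrees of freedom were infinite, which is full pooling of the spread over genes. Over 9021 genes, the 2 VQ BM sums had a chi-square of 1.57 per degree of freedom, above the value of 1 that sampling gives. SE is the absolute log2 fold change over the square root of F. The script was tested on simulated counts, with 100 genes changed 2-fold and 100 changed 4-fold. For VQ BM against WT BM it recovered 27 and 70 of these, with 7 false calls among 104. For VQ LN against VQ BM it recovered 58 and 94, with 10 false calls among 162. A true 2-fold change was thus often not called. Every simulated library was given the coefficient of variation of the fit, which comes from the VQ BM pair. The false calls therefore do not cover a lone library that varies more than that pair. Shares have exact Clopper-Pearson and levels exact Poisson 95% intervals, both for counting error only, and a count of 0 is given a limit of 3. Up to 4 further genes per list and comparison were named, those called with the largest change. In VQ LN against WT BM, which has no test, they were taken from genes past 2-fold with at least 20 UMIs over both libraries. A gene named in 1 comparison may be given in another, as Irf1 is. Alternatives were DESeq2 1.42.0, other scalings, filters, thresholds and cell subsets. Traf3 and Nfkb2 overlap genes on the other strand (4930595D18Rik, Psd), which had 0 UMIs, and Nfkb1 and Nfkb2 overlap Gm43430 and AC114539.1, not in the tables.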

Additional observations from a re-analysis of the deposited data

How the results depend on the processing

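The number of members called lower in VQ BM than in WT BM, 5, fell to 3 with sums thinned to the smallest library (5 members tested), to 2 with DESeq2 (6 with an adjusted p), and to 1 in cells with at most 1 cycle gene (4 tested) and in cells without immediate early or heat shock UMIs (6 tested, 16 wild-type cells). The cell subsets and thinned sums hold fewer cells or UMIs, while DESeq2 ran on the same sums as the main fit. Why fewer members were called in these 4 settings was not tested. Nfkbia was called in each, with log2 fold changes over all alternatives from -3.15 to -2.16. Genes called in that comparison, 2478, became 1494, 489, 781 and 372 under the same 4 settings and 1644 with a preset coefficient of variation of 0.2. For VQ LN against VQ BM, the 259 genes became 161 with a Jchain threshold of 2%, 107 with all cells, 162 without cells bearing markers of another type, 46 in cells with at most 1 cycle gene, 65 without immediate early or heat shock UMIs, 30 with thinned sums, 21 with DESeq2 and 82 with the preset coefficient. For VQ LN against WT BM, 7 of 9 tested members were past 2-fold lower. This became 3 of 4 in cells with at most 1 cycle gene, 4 of 6 without immediate early or heat shock UMIs and 3 of 5 with thinned sums. With no filter, 1 member (Rel) was past 2-fold higher. The Nfkb2 share of Nfkb1 plus Nfkb2 in WT BM was 32.5% with all cells. Without immediate early or heat shock UMIs it was 80.0% (4 of 5 UMIs; 28.4 to 99.5%). There VQ BM 1 gave 23.5% (6.81 to 49.9%), so the intervals overlapped. In cells with at most 1 cycle gene it was 57.6% in WT BM (39.2 to 74.5%) and 22.7% in VQ BM 1 (7.82 to 45.4%), also overlapping. It was 0 in VQ BM 2. In the same cells the Relb share of Rela plus Relb was 50% in VQ BM 2 (1 of 2 UMIs) and 37.5% in VQ LN (3 of 8). No called log2 fold change of a member changed sign. Leaving out VQ BM library 1 or 2 leaves no residual degree of freedom, so those values have no test. They ranged from -3.15 to -2.89 for Nfkbia, -5.05 to -3.85 for Tnfaip3, -3.44 to -3.22 for Nfkb2, -3.57 to -3.52 for Relb and -2.54 to -1.72 for Birc3. The immediate early and heat shock subset and the cycle subset of the subunit shares were chosen after seeing the data. No paired analysis was possible because WT BM and VQ LN have 1 library each, so groups share fewer than 2 replicate numbers.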

Other observations

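Cells that the Jchain threshold left out also carried NF-kB transcripts. In the 57 wild-type cells outside it, Nfkbia stood at 338 CPM, and Nfkb1 at 272 CPM in the 26 cells with at least 2 B cell precursor markers and 344 CPM in the other 31. Nfkbia stood at 230 and 591 CPM in those same cells, all before TMM scaling. In the 19 and 18 VQ BM cells with at least 5% Jchain, Nfkbia stood at 686 and 550 CPM, and VQ LN held no such cell. As point values these lie between the kept VQ cells and the kept wild-type cells. They rest on few cells and UMIs, and their difference from the kept wild-type cells was not tested.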
